A study of Mus musculus with 11 samples.

Results

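Colonies that mouse JB6 cells formed in soft agar under basic fibroblast growth factor (bFGF) were compared with attached monolayers of the same cells by Affymetrix arrays, whose signal for each gene is given on a log2 scale. The comparison took the 3 arrays titled bFGF-colonies and the 3 titled bFGF-monolayer, 6 of the 11 arrays of the series. Both groups are the parental JB6 clone 41-5A, an epidermis-derived mouse line whose growth without anchorage the study calls reversible, since it depends on an added growth factor. Colonies grew over agar with 10 ng/ml bFGF and were harvested on day 7. The monolayers are also labelled as bFGF-treated, with no dose or time of their own, so exposure may differ between the groups. All cells were kept in medium with fetal bovine serum. The other 5 arrays are RT101, a tumour variant of JB6 that received no treatment, with 2 monolayer and 3 colony samples. Each kind of cell is 1 line, and no label tells if replicates were grown separately, so p-values reflect only how far replicate arrays scatter, which may be technical.

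A growth factor such as bFGF binds receptor tyrosine kinases and drives the Ras and ERK cascade, which induces immediate early transcription factors and, in turn, inhibitors that feed back on the cascade. Attached cells receive a second input from integrins bound to matrix, and cells in agar lack most of it. Transcription factors set which genes respond, receptors and secreted factors set how cells in a colony signal to each other, and transporters set what they take up and export.

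The 6 arrays had log2 medians of 5.86 to 5.95. Arrays within a group correlated at 0.989 to 0.9975 over all probe sets, and arrays of different groups at 0.9779 to 0.9828. On bFGF-JB6 monolayer replicate 1 and bFGF-JB6 colonies replicate 3 the 3′ signal of the Gapdh control stood 0.19 and 0.35 above the 5′ signal on the log2 scale, against -0.08 to -0.01 on the other arrays. Of 16 fibroblast markers 13 lay above the median gene in both groups, Vim and Dcn among them. Of 20 measured keratinocyte markers 11 lay below a log2 level of 4.09 in both groups, Trp63 and Krt14 among them. That level, below which 25% of all genes lie, is called the bottom of the scale here. Of the same 20 keratinocyte markers 1 lay at or above the median gene in both groups. The RNA thus carried fibroblast markers more strongly than the keratinocyte markers that the epidermal origin of the line would give.

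Of 12393 genes, 3642 (29.4%) passed an adjusted p of 0.05 in limma, 1751 higher in colonies (14.1%) and 1891 lower (15.3%). Most of these differences were small, with a median size of 0.50 on the log2 scale. In 4 classes of genes, increases outnumbered decreases. Of 534 transcription factors 82 rose and 50 fell, of 480 receptors 77 rose and 25 fell, of 674 secreted factors 118 rose and 69 fell, and of 540 transporters and channels 87 rose and 35 fell. The median log2 changes were 0.05, 0.08, 0.08 and 0.07, against 0.03 over all genes. The shares that rose, 15.4%, 16%, 17.5% and 16.1%, lay close to that of all genes, and the shares that fell, 9.36%, 5.21%, 10.2% and 6.48%, lay below it. Members of these classes were weak on the array, with 848 of the 2228 at the bottom of the scale in both groups. Weak genes passed less often in general: 14% of genes at or below the median level passed, and 44.7% of those above it. Each gene named below as having risen or fallen had its 3 colony arrays all above or all below its 3 monolayer arrays, which held for 37.8% of all genes. The counts of genes that rose or fell in a list rest on the adjusted p alone. Over all genes 160 passed with overlapping groups.

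**Figure D1:**
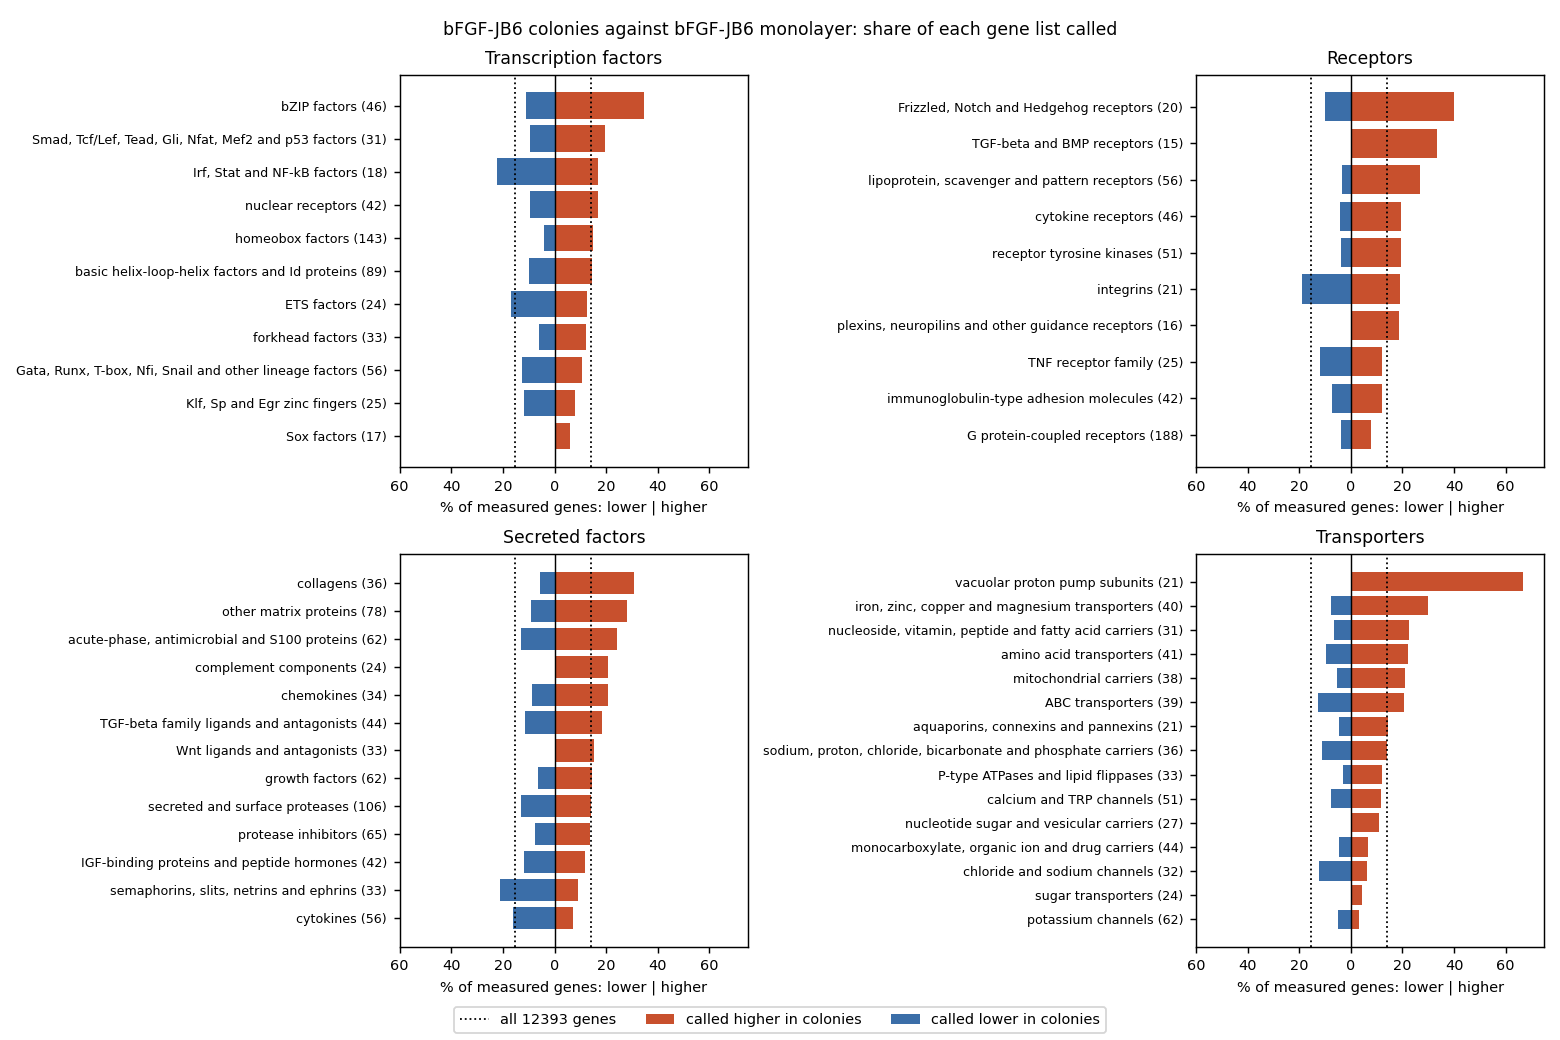
Share of each gene list that was called higher (right, red) or lower (left, blue) in bFGF-JB6 colonies at an adjusted p of 0.05, in percent of the measured genes, whose number is in parentheses; lists of at least 15 genes are shown. Dotted lines mark the shares over all 12393 genes, 14.1% higher and 15.3% lower; vacuolar proton pump subunits and bZIP factors reach furthest to the right among transporters and transcription factors.

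Genes of the circadian clock, a list kept apart from the class of transcription factors, stood out by count. The clock is a feedback loop in which Clock and Arntl drive Per, Cry, Nr1d and Bhlhe40 genes, and the PAR bZIP factors Dbp, Hlf and Tef carry its rhythm to other genes. Of 19 clock genes 10 rose (52.6%) and 0 fell, with a median of 0.27. Some of these 10, such as Dbp, are counted again among the bZIP factors or nuclear receptors below. Dbp had log2 levels of 4.29, 4.09 and 4.35 in monolayer and 6.18, 5.91 and 6.45 in colonies, a log2 change of 1.94 (SE 0.13, adjusted p = 9.27e-08). Hlf went from 4.34, 4.00 and 3.99 to 5.54, 5.53 and 5.23, a change of 1.32 (SE 0.11, adjusted p = 1.15e-06). The groups did not overlap for either gene, and their monolayer levels lay near the bottom of the scale. Bhlhe40, a repressor of the loop, lay at 8.36, 8.33 and 8.38 in monolayer and 9.83, 9.75 and 9.75 in colonies and changed by 1.42 (SE 0.08, adjusted p = 3.43e-08). The Rev-erb repressor genes Nr1d1 (1.03, SE 0.11, adjusted p = 6.76e-06) and Nr1d2 (0.75, SE 0.09, adjusted p = 1.61e-05) rose too, as did their activating counterpart Rora (0.98, SE 0.09, adjusted p = 2.45e-06) and Tef (0.54, SE 0.09, adjusted p = 0.000509). Per1 (0.29), Per2 (0.27) and Cry2 (0.27) passed at smaller sizes, and each lost its call in 6 or 7 of 13 alternative settings, where the adjusted p reached 0.155, 0.111 and 0.103. Averaged over their probe sets, Rora gave 0.53 and Tef 0.27. The drivers Clock (0.11, SE 0.09, adjusted p = 0.387) and Arntl (-0.07, SE 0.07, adjusted p = 0.556) did not pass. The labels give no time of day or of medium change, so a shift in phase and a change in mean level cannot be told apart from 1 harvest.

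Nuclear receptors, which are ligand-gated factors, passed in both directions, 7 up (16.7%) and 4 down (9.52%) of 42, shares close to or below those of all genes. The thyroid hormone receptor gene Thra read 7.19, 7.10 and 7.11 in monolayer and 8.33, 8.19 and 8.26 in colonies, a change of 1.12 (SE 0.08, adjusted p = 1.55e-07). Its common partner Rxra, a retinoid X receptor, changed by 1.02 (SE 0.12, adjusted p = 1.53e-05), and the glucocorticoid receptor gene Nr3c1 by 0.51 (SE 0.10, adjusted p = 0.00109). The orphan receptor gene Nr2f2 (COUP-TFII) fell from 7.98, 7.71 and 7.80 to 6.68, 6.66 and 6.50, a change of -1.22 (SE 0.10, adjusted p = 5.19e-07). Nr2c2, another orphan receptor, changed by -0.83 (SE 0.08, adjusted p = 3.89e-06). In all 5 genes the 3 colony arrays lay on one side of the 3 monolayer arrays. With the probe sets of a gene averaged, Thra gave 0.74, Rxra 0.66 and Nr2c2 -0.23.

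Several immediate early factors fell in colonies. Fos, an AP-1 subunit, lay at 8.16, 8.11 and 8.20 in monolayer and 6.83, 6.76 and 6.86 in colonies, a change of -1.34 (SE 0.08, adjusted p = 2.95e-08). Egr1, a zinc finger factor induced through ERK, fell by 0.99 on the log2 scale (SE 0.10, adjusted p = 7.08e-06), and Egr2 by 0.97 (SE 0.13, adjusted p = 6.2e-05). The AP-1 genes Fosl1 (-0.70) and Jun (-0.60) fell less. Of 46 bZIP factors 16 rose (34.8%) and 5 fell, and those that fell were Fos, Fosb, Fosl1, Jun and the cyclic AMP responder Crem (-0.80, or -0.52 with its probe sets averaged). Fosb (-0.71) stood at -0.32 without monolayer replicate 1 and then did not pass (adjusted p = 0.0618), and it lost its call in 6 of 13 alternative settings, up to an adjusted p of 0.123. The stress factor gene Atf4, which drives amino acid supply genes, changed the other way, by 0.87 (SE 0.09, adjusted p = 5.82e-06), or 0.46 with its probe sets averaged. Myc, a growth-promoting helix-loop-helix factor, went from 7.75, 7.84 and 8.06 to 7.03, 6.81 and 6.63, a change of -1.06 (SE 0.13, adjusted p = 2.68e-05).

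The founding ETS genes moved in opposite directions. Ets1 had levels of 7.27, 7.15 and 6.94 in monolayer and 5.76, 5.90 and 6.05 in colonies (-1.22, SE 0.10, adjusted p = 1.02e-06), and Ets2 had 8.40, 8.04 and 8.11 and 9.66, 9.61 and 9.54 (1.42, SE 0.10, adjusted p = 1.51e-07). ETS factors as a list were split, 3 up (12.5%) and 4 down (16.7%) of 24, near the shares of all genes. A similar split ran through the Tead genes, which bind DNA for the Hippo pathway's co-activator Yap. Tead4 changed by -1.01 (SE 0.17, adjusted p = 0.000409), Tead2 by 0.58 (SE 0.12, adjusted p = 0.00264) and Tead3 by 0.62 (SE 0.09, adjusted p = 0.000225). E2f8, an atypical repressor of the E2F family that peaks late in S phase, fell from 8.25, 8.08 and 8.04 to 6.63, 6.50 and 6.72 (-1.51, SE 0.09, adjusted p = 6.38e-08).

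The shares of forkhead and homeobox factors that rose lay close to that of all genes. Of 33 forkhead genes 4 rose (12.1%) and 2 fell. Foxf2, a mesenchymal factor, read 5.24, 5.29 and 5.57 in monolayer and 6.73, 6.47 and 6.65 in colonies (1.25, SE 0.11, adjusted p = 1.41e-06). Foxc1 changed by 1.08 (SE 0.10, adjusted p = 3.06e-06), its close relative Foxc2 by -0.56 (SE 0.09, adjusted p = 0.000224), and Foxo1, a factor restrained by Akt, by 1.02 (SE 0.11, adjusted p = 1.35e-05), or 0.66 with its probe sets averaged. Homeobox genes gave 21 increases (14.7%) and 6 decreases among 143, none of 2-fold. The Iroquois genes Irx5 (0.75), Irx1 (0.74), Irx2 (0.50) and Irx3 (0.45) were all among those that rose, and Six4 (-0.77) and Dlx1 (-0.62) among those that fell, Six4 by 0.41 with its probe sets averaged. Zeb2, a repressor active in epithelial-mesenchymal transition, changed by -0.90 (SE 0.09, adjusted p = 3.57e-06), and Gata3 by 0.80 (SE 0.15, adjusted p = 0.00137).

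**Figure D2:**
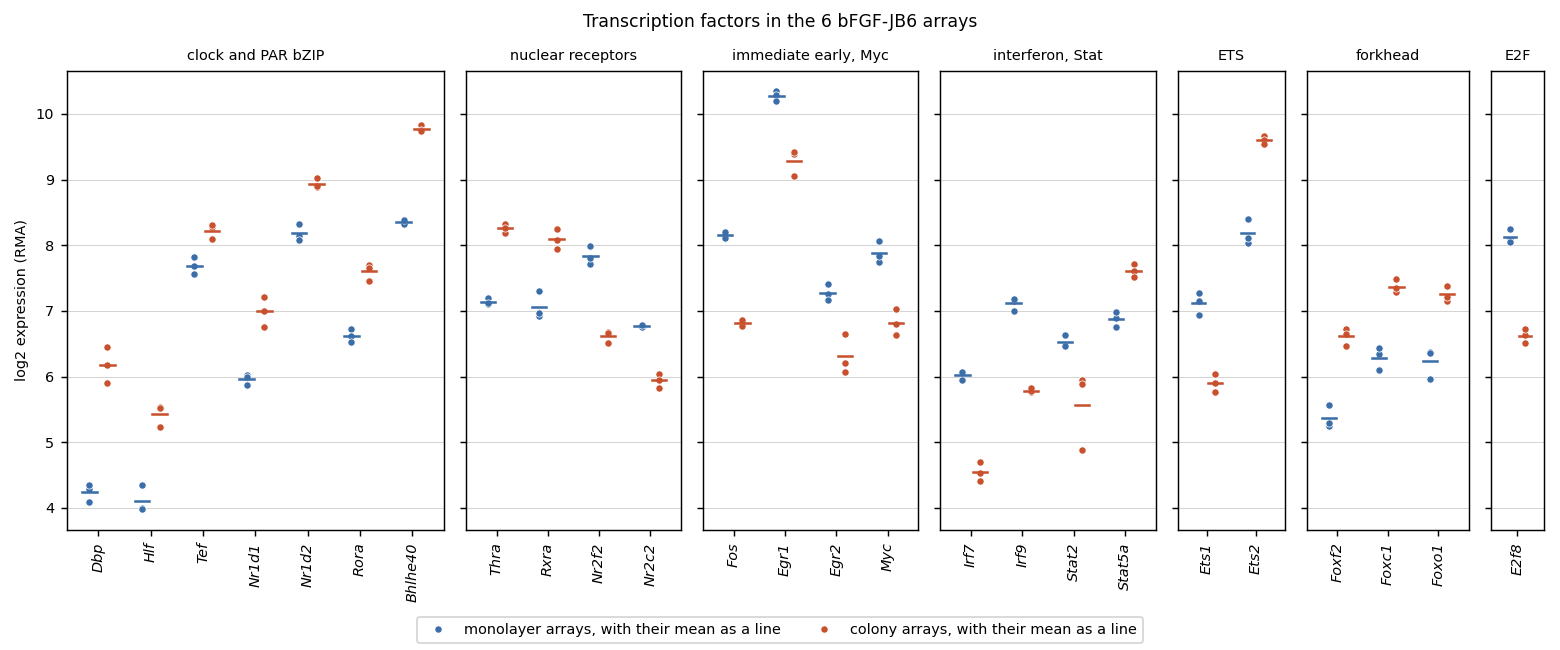
Log2 expression of transcription factor genes on each bFGF-JB6 array (points; blue, 3 monolayer arrays; red, 3 colony arrays) with the group mean as a line. Clock output genes, Thra, Rxra, Ets2 and the forkhead genes lie higher in colonies, and immediate early genes, Myc, Irf7, Irf9, Ets1 and E2f8 lie lower, with no overlap of the groups in any gene drawn; the colony arrays of Stat2 spread most.

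Of 18 Irf, Stat and NF-kB factors 3 rose (16.7%) and 4 fell (22.2%), with a median of 0.00. Irf7, Irf9 and Stat2, which are themselves interferon-induced, were among those that fell, and Irf9 with Stat2 forms the complex that binds interferon-response elements in promoters. Irf7 read 6.05, 5.94 and 6.07 in monolayer and 4.41, 4.70 and 4.53 in colonies (-1.47, SE 0.11, adjusted p = 3.17e-07), and Irf9 read 7.01, 7.15 and 7.19 and 5.76, 5.77 and 5.82 (-1.33, SE 0.11, adjusted p = 5.77e-07). Stat2 read 6.48, 6.63 and 6.47 and 5.95, 5.89 and 4.88 (-0.95, SE 0.21, adjusted p = 0.00358), and without colonies replicate 3, its lowest array and one with raised 3′ signal, the change was -0.61 (adjusted p = 0.00045). Irf1 (0.48), Stat3 (0.22) and Stat5a (0.74), which respond to other cytokines as well, rose, although Stat3 lost its call in 7 of 14 alternative settings, up to an adjusted p of 0.142. The core of the response element, GAAA, any 2 bases and GAAA again, was looked for on both strands from 250 bases before to 50 bases after the start sites that RefSeq lists on build GRCm38.p6, which 9882 of the genes had. It was present for 3.85% of all these genes, for 4.72% of the 1568 that fell, for 3.96% of the 1389 that rose and for 3.62% of genes not called, so these shares lay close together. Among genes that changed at least 2-fold it was present for 11.6% of the 181 that fell and 5.96% of the 151 that rose. Of the 7 called Irf, Stat and NF-kB factors it was present for 2, Stat2 among them, and it was absent for Irf7 and Irf9. The motif was chosen after the values were seen, and a match is a description, not a bound site. The promoters of 3 genes that fell are shown because each holds the element, in capitals, at positions counted from the start site. They belong to Oas1a, an antiviral enzyme gene with close relatives that its probe set may also read (log2 change -2.53; chr5:120907476-120907775, minus strand, first match at -20, overlapping a second at -14), to Lgals9, which encodes galectin-9 (-1.03; chr11:78984875-78985174, minus strand, matches at -55 and 16), and to Stat2 itself (chr10:128270248-128270547, plus strand, match at -222).
Oas1a: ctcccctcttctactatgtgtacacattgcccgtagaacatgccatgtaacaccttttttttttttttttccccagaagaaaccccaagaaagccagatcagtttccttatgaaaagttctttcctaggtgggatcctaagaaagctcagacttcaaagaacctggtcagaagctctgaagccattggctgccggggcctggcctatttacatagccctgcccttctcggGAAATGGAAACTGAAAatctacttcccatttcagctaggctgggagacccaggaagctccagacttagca
Lgals9: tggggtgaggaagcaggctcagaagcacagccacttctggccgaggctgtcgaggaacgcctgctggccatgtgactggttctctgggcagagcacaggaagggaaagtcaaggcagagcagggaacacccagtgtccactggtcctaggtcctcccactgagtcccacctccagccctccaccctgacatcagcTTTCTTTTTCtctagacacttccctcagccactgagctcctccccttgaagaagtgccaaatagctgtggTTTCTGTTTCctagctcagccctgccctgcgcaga
Stat2: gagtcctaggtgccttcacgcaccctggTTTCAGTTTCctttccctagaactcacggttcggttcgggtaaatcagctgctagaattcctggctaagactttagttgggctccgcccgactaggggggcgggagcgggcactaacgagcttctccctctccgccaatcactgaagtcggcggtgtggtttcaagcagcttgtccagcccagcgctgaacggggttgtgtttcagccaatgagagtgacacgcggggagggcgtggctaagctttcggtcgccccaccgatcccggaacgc

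Of the receptors of the added factor 2 rose in colonies. Fgfr1, the main bFGF receptor of mesenchymal cells, had levels of 10.19, 9.74 and 9.71 in monolayer and 11.44, 11.47 and 10.80 in colonies, a change of 1.36 (SE 0.16, adjusted p = 2.93e-05). Fgfr2 went from 6.25, 6.56 and 6.25 to 6.91, 6.95 and 7.01 (0.60, SE 0.10, adjusted p = 0.000428). Fgfr3 (0.18, adjusted p = 0.481), Fgfr4 (-0.0045, adjusted p = 0.985) and Fgf2, the gene of bFGF itself (0.16, adjusted p = 0.624), did not pass, and their signs turned in some alternative settings. Of 51 receptor tyrosine kinases 10 rose (19.6%) and 2 fell. The ephrin receptor gene Epha7 (1.09, SE 0.17, adjusted p = 0.000249) rose and Epha2 (-0.67, SE 0.11, adjusted p = 0.000371) fell, as did the collagen receptor gene Ddr2 (-0.58, SE 0.09, adjusted p = 0.000316).

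The LIF and interleukin-6 family was not a list of its own. Its receptor genes Lifr and Osmr rose, and some ligand genes fell. These ligand genes were picked after their values were seen, and its other receptor genes are not given here. Lifr, the LIF receptor gene, read 4.38, 4.53 and 4.47 in monolayer and 6.22, 5.88 and 6.55 in colonies (1.76, SE 0.14, adjusted p = 4.42e-07), and its change was 0.83 with its probe sets averaged. Osmr, the oncostatin M receptor gene, read 8.43, 8.39 and 8.19 and 9.25, 9.32 and 9.79 (1.11, SE 0.14, adjusted p = 3.21e-05). The ligand genes Lif (-1.03, SE 0.10, adjusted p = 6.27e-06), Il11 (-1.03, SE 0.08, adjusted p = 5.22e-07) and Clcf1 (-1.08, SE 0.15, adjusted p = 0.000131) fell, Lif losing its call (adjusted p = 0.0778) when its probe sets were averaged. The ligand genes Il6 (0.26, adjusted p = 0.263) and Ctf1 (0.29, adjusted p = 0.0527) did not pass, although Ctf1 did in 6 of 14 alternative settings. Csf2rb, the shared beta chain of receptors for GM-CSF, interleukin-3 and interleukin-5, read 6.53, 6.03 and 6.09 and 8.38, 8.58 and 7.63, and changed by 1.97 (SE 0.20, adjusted p = 6.33e-06). Cytokine receptors gave 9 increases (19.6%) and 2 decreases among 46 genes. Some macrophage markers moved beside Csf2rb. Of 14 markers 4 rose (28.6%), Cd68 most (1.86), and 1 fell, the mannose receptor gene Mrc1 (-0.64). The macrophage receptor gene Csf1r (0.92, or 0.46 with its probe sets averaged) is itself on this list. At the bottom of the scale in both groups lay 7 of the markers, Ptprc and Adgre1 among them. The summed linear signal of the list was 835 to 855 in monolayers and 1027 to 1132 in colonies, and its part in these results was not tested. In bulk RNA, a change in the number of cells of a type and a change in RNA per cell cannot be told apart.

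Scavenger and pattern receptors gave 15 increases (26.8%) and 2 decreases among 56 genes, with a median of 0.16. Scara5, a ferritin-binding scavenger receptor, went from 6.88, 6.78 and 6.82 to 9.82, 9.67 and 9.60, a 7.3-fold increase (2.87, SE 0.09, adjusted p = 6.97e-11), and its change was 1.42 with its probe sets averaged. Olr1, a receptor for oxidised lipoprotein, went from 3.13, 3.61 and 3.23 to 5.48, 5.39 and 5.86 (2.25, SE 0.14, adjusted p = 5.77e-08), with all monolayer arrays at the bottom of the scale. Tlr2, a receptor for bacterial lipoproteins, changed by 1.65 (SE 0.09, adjusted p = 1.78e-08), and the lectin gene Clec4d by 1.49 (SE 0.14, adjusted p = 2.23e-06). The high-density lipoprotein receptor gene Scarb1 (-0.71) and the mannose receptor gene Mrc1 (-0.64) were the 2 that fell, Scarb1 by 1.13 with its probe sets averaged. The macrophage marker sums given above rose beside the receptors that rose, whereas Mrc1, a marker in those sums, fell.

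G protein-coupled receptors were mostly at the bottom of the scale, 107 of 188 in both groups, and 15 rose (7.98%) and 7 fell (3.72%). Npy1r, a neuropeptide Y receptor, read 4.70, 4.88 and 4.94 in monolayer and 6.80, 6.60 and 7.00 in colonies (1.96, SE 0.10, adjusted p = 1.45e-08), and its change was 0.97 with its probe sets averaged. The lysosomal membrane gene Gpr137b (1.76, SE 0.10, adjusted p = 2.02e-08) and Mrgprf (1.70, SE 0.11, adjusted p = 6.98e-08) also rose. The receptors that fell by 2-fold both belong to the chemokine system. Ackr3, which takes up the chemokine Cxcl12, dropped from 7.19, 7.19 and 7.05 to 4.69, 4.80 and 4.95 (-2.33, SE 0.11, adjusted p = 2.49e-09), and Ccr1 changed by -1.26 (SE 0.15, adjusted p = 3e-05), or -0.81 with its probe sets averaged.

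Matrix and pathway receptors were split. Of 21 integrin genes 4 rose (19%) and 4 fell (19%). Of the decreases 3 reached 2-fold, and not all of them are named here. The laminin-binding integrin chains Itga6, at 9.94, 9.93 and 9.97 in monolayer and 8.18, 8.24 and 8.08 in colonies (-1.78, SE 0.08, adjusted p = 1.83e-09), and Itga3 (-1.33, SE 0.13, adjusted p = 5.12e-06) fell. Itgb5, a chain of a vitronectin receptor, went the other way (1.29, SE 0.10, adjusted p = 5.07e-07), as did the adhesion gene Vcam1 (1.33, SE 0.10, adjusted p = 4.41e-07). Of 15 TGF-beta and BMP receptors 5 rose (33.3%) and 0 fell, Tgfbr2 (0.82, SE 0.08, adjusted p = 2.43e-06) and Acvr1 (0.68, SE 0.08, adjusted p = 3.13e-05) most. Frizzled, Notch and Hedgehog receptors gave 8 increases (40%) and 2 decreases among 20. In the Hedgehog pathway the signal transducer gene Smo rose (0.78, SE 0.11, adjusted p = 0.000102) and Ptch1, the ligand's receptor and a target of the pathway, fell (-0.84, SE 0.14, adjusted p = 0.000548), by 0.48 with its probe sets averaged.

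Among secreted factors chemokines diverged. Cxcl12, a homeostatic chemokine, rose most of all genes, from 6.06, 5.80 and 5.97 to 10.81, 10.72 and 10.80 (4.83, SE 0.08, adjusted p = 4.56e-13). Its signalling receptor gene Cxcr4 lay at the bottom of the scale, at 2.60, 2.63 and 2.45 in monolayer and 2.51, 2.51 and 2.73 in colonies, and did not pass (adjusted p = 0.928). Ccl8 also rose, from 9.26, 9.27 and 9.10 to 11.63, 11.59 and 11.70 (2.43, SE 0.10, adjusted p = 1.32e-09). The other monocyte attractants Ccl2 and Ccl7 fell: Ccl2 from 12.67, 12.92 and 12.79 to 11.29, 11.19 and 10.68 (-1.74, SE 0.15, adjusted p = 1.04e-06) and Ccl7 by 1.67 on the log2 scale (SE 0.12, adjusted p = 3.42e-07). Of 34 chemokines 7 rose (20.6%) and 3 fell (8.82%), Ccl5 (-0.71) being the third that fell.

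Of 56 cytokine genes 4 rose and 9 fell, and the share that fell (16.1%) was near that of all genes. After Il33 (-4.80) and Tslp (-4.28), which signal epithelial damage, came Il24, at 5.13, 5.30 and 5.11 in monolayer and 3.74, 3.76 and 4.04 in colonies (-1.34, SE 0.10, adjusted p = 5.1e-07), and Il34, a ligand of Csf1r (-0.92, SE 0.11, adjusted p = 2.93e-05). The 4 that rose were Mif (0.62), Il7 (0.58), Tnfsf9 (0.39) and Ifna11 (0.30), none by 2-fold, and Il7 and Ifna11 lay at the bottom of the scale in both groups. Il7 gave 0.29 with its probe sets averaged, and Ifna11 lost its call in 8 of 13 alternative settings, up to an adjusted p of 0.146.

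Growth factor genes gave 9 increases (14.5%) and 4 decreases among 62, of which 4 increases and 3 decreases reached 2-fold. The 3 decreases were of EGF receptor ligands. Hbegf read 10.49, 10.43 and 10.56 in monolayer and 7.93, 7.74 and 8.14 in colonies, a 5.89-fold decrease (-2.56, SE 0.10, adjusted p = 7.04e-10). Btc read 9.08, 9.05 and 9.16 and 7.55, 7.22 and 7.63 (-1.63, SE 0.10, adjusted p = 5.2e-08), and Ereg changed by -1.14 (SE 0.11, adjusted p = 4.86e-06). Their receptor gene Egfr did not pass (0.08, adjusted p = 0.703). Of the 4 increases 3 were of PDGF and VEGF ligands, Vegfd from 6.15, 5.75 and 6.23 to 8.17, 8.27 and 7.82 (2.05, SE 0.13, adjusted p = 1.05e-07), Pdgfc by 1.32 (SE 0.09, adjusted p = 1.49e-07) and Vegfb by 1.09 (SE 0.18, adjusted p = 0.000332), while Vegfa did not pass (0.32, adjusted p = 0.0561). Vegfa passed in 3 of 14 alternative settings. The fourth increase was of Ccn4, a matricellular protein gene of neither family (1.28, SE 0.10, adjusted p = 5.77e-07).

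Secreted antagonists of TGF-beta family ligands changed in both directions. Fst, which encodes the activin trap follistatin, fell from 9.80, 9.70 and 9.81 to 7.17, 7.28 and 7.31 (-2.52, SE 0.08, adjusted p = 1.05e-10), together with Inhba, the activin A subunit gene (-0.87, SE 0.10, adjusted p = 2.69e-05), and the BMP antagonist gene Grem1 (-0.80, SE 0.08, adjusted p = 4.46e-06). Nbl1, another BMP antagonist of the family of Grem1, rose from 6.11, 5.89 and 5.92 to 8.31, 8.46 and 7.36 (2.07, SE 0.21, adjusted p = 5.43e-06), and the follistatin-like gene Fstl1 changed by 1.50 (SE 0.09, adjusted p = 6.98e-08). Of 44 genes on this list 8 rose (18.2%) and 5 fell. Of 33 Wnt genes 5 rose (15.2%), near the share of all genes, and 0 fell, while 18 lay at the bottom of the scale in both groups. Rspo2, which strengthens Wnt signals, rose most of them (1.16, SE 0.16, adjusted p = 8.27e-05).

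Hormones and guidance cues gave further large differences. Agt, the precursor of angiotensin, rose 8.6-fold, from 5.39, 5.10 and 5.15 to 8.42, 8.43 and 8.10 (3.10, SE 0.11, adjusted p = 1.91e-10), while the receptor gene Agtr2 stayed at the bottom of the scale (0.17, adjusted p = 0.258). Stc1, which encodes stanniocalcin, changed by -1.38 (SE 0.15, adjusted p = 1.39e-05), or -0.56 with its probe sets averaged, and the natriuretic peptide gene Nppb by -1.33 (SE 0.20, adjusted p = 0.000206). Semaphorins, slits, netrins and ephrins gave 3 increases and 7 decreases (21.2%) among 33. Sema7a, a membrane-anchored cue that binds integrins, fell from 9.45, 9.37 and 9.41 to 7.15, 6.95 and 7.19 (-2.32, SE 0.10, adjusted p = 2.05e-09), and Sema3a, a neuropilin ligand, changed by -1.61 (SE 0.10, adjusted p = 3.94e-08).

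Secreted proteases and their inhibitors changed in both directions. Mmp11, a protease gene of tumour stroma, rose from 6.82, 6.50 and 6.59 to 9.86, 10.07 and 9.47 (3.16, SE 0.15, adjusted p = 4.73e-09). F3, which encodes the clotting initiator tissue factor, rose from 4.56, 4.65 and 4.60 to 7.49, 7.33 and 7.41 (2.81, SE 0.09, adjusted p = 6.97e-11), and Prss23 changed by 2.36 (SE 0.10, adjusted p = 7.9e-10). Mmp10 (-1.66, SE 0.18, adjusted p = 1.29e-05) and Adam8 (-1.75, SE 0.11, adjusted p = 7.13e-08) fell, and the 106 proteases held 15 increases and 14 decreases, near the shares of all genes. Timp1, an inhibitor of matrix proteases, fell from 10.94, 10.94 and 11.08 to 9.38, 9.26 and 9.02 (-1.77, SE 0.12, adjusted p = 1.18e-07), and Cst3, which inhibits cathepsins, rose (1.04, SE 0.13, adjusted p = 2.88e-05). The initiating proteases of the complement pathways, C1s1 (1.75, SE 0.11, adjusted p = 5.73e-08), C1ra (1.62, SE 0.11, adjusted p = 1.06e-07) and Masp1 (1.22, SE 0.09, adjusted p = 2.84e-07, or 0.77 with its probe sets averaged), rose. They stood among 5 increases (20.8%) and 0 decreases in 24 complement genes. The other two, Cfp (0.57) and Cd59a (0.35), lost their calls in 3 and 9 of 13 alternative settings, up to an adjusted p of 0.0746 and 0.159.

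**Figure D3:**
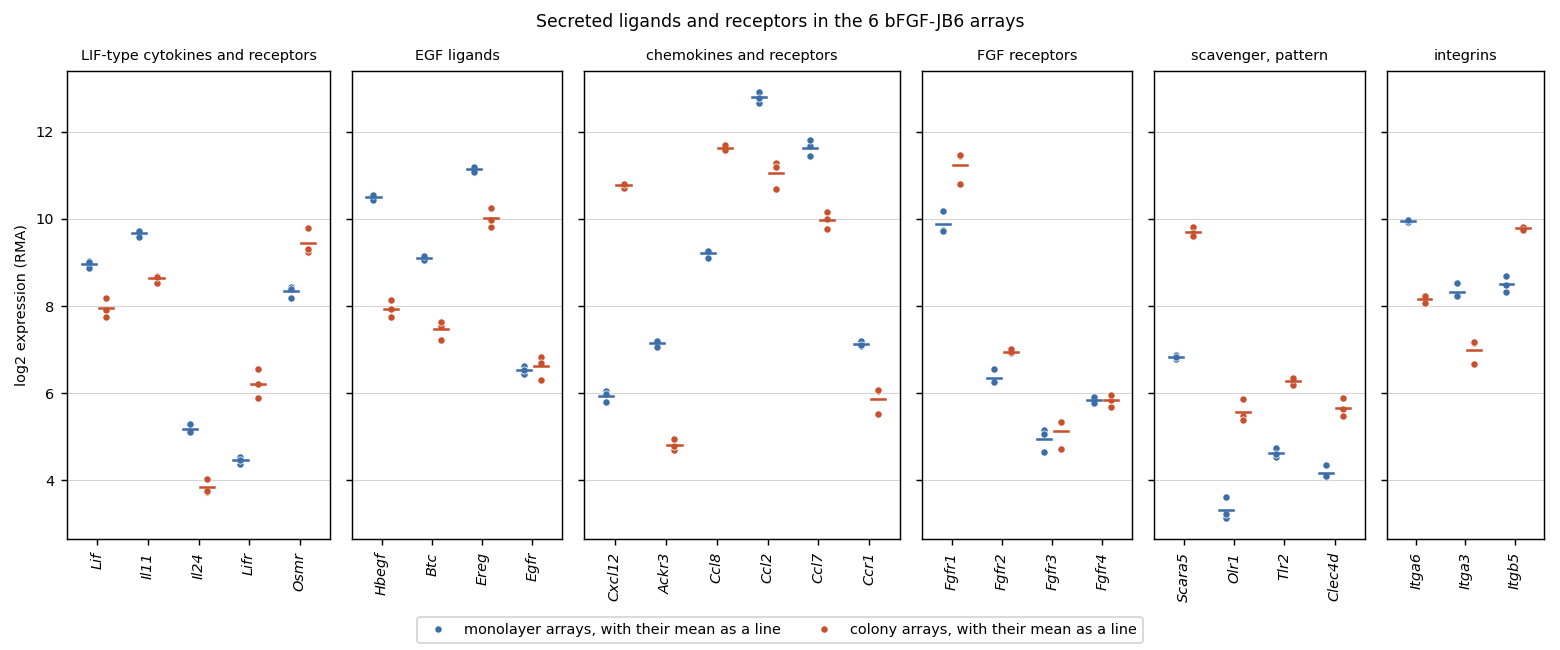
Log2 expression of secreted ligand and receptor genes on each bFGF-JB6 array (points; blue, 3 monolayer arrays; red, 3 colony arrays) with the group mean as a line. Lif, Il11 and the EGF receptor ligands lie lower in colonies and Lifr and Osmr higher; Cxcl12 rises while Ackr3 falls; Fgfr3, Fgfr4 and Egfr overlap between the groups.

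Of 540 transporter and channel genes 87 rose and 35 fell, as given above, and Slc40a1 rose most. Slc40a1, the iron exporter ferroportin, read 3.88, 3.85 and 3.54 in monolayer, at the bottom of the scale, and 7.41, 7.19 and 7.75 in colonies (3.70, SE 0.14, adjusted p = 4.32e-10). Of 40 metal transporter genes 12 rose (30%) and 3 fell. The zinc exporter gene Slc30a1 (0.97, SE 0.14, adjusted p = 0.000142) and the heme transporter gene Slc48a1 (0.76, SE 0.11, adjusted p = 0.00012) rose, and the metalloreductase gene Steap1 fell from 9.38, 9.31 and 9.20 to 8.07, 7.91 and 8.22 (-1.23, SE 0.09, adjusted p = 3.61e-07). Hmox1, the heme oxygenase gene that frees iron from heme, named outside these lists, changed by 1.16 (SE 0.12, adjusted p = 1.03e-05).

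Amino acid carriers gave 9 increases (22%) and 4 decreases among 41 genes. Slc7a11, the cystine importer that supplies glutathione synthesis, went from 4.35, 4.35 and 4.26 to 6.54, 6.04 and 5.78 (1.80, SE 0.15, adjusted p = 1.21e-06), and its partner chain Slc3a2 changed by 0.61 (SE 0.09, adjusted p = 0.00021). The glycine carrier gene Slc6a9 (1.04, SE 0.08, adjusted p = 3.94e-07), the neutral amino acid carrier gene Slc1a4 (0.96, SE 0.19, adjusted p = 0.00141) and the cationic amino acid carrier gene Slc7a2 (1.10, SE 0.21, adjusted p = 0.00142) rose as well. Slc7a8, another partner of Slc3a2 that carries neutral amino acids, fell from 4.77, 5.31 and 5.26 to 3.69, 3.93 and 4.18 (-1.18, SE 0.18, adjusted p = 0.00026).

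The mouse genes for P-glycoprotein, an ATP-driven drug exporter, moved apart. Abcb1b fell from 8.55, 8.36 and 8.46 to 7.26, 7.32 and 7.38 (-1.13, SE 0.09, adjusted p = 4.41e-07), and Abcb1a rose from 5.38, 4.86 and 5.29 to 6.38, 5.68 and 6.12 (0.88, SE 0.18, adjusted p = 0.0023). They are near-identical relatives, so each probe set may read some of the other transcript. Abca1, the cholesterol exporter, went from 6.28, 6.13 and 5.90 to 7.66, 7.65 and 8.04 (1.68, SE 0.12, adjusted p = 2.9e-07), and the exporter gene Abcg2 changed by 1.08 (SE 0.16, adjusted p = 0.000151).

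Few potassium channels were called. Of 62 potassium channel genes 2 rose (3.23%) and 3 fell (4.84%), and 32 lay at the bottom of the scale in both groups. Kcnk2, a two-pore channel gated by stretch, fell from 7.11, 7.01 and 6.89 to 5.61, 5.51 and 5.84 (-1.35, SE 0.10, adjusted p = 1.89e-07), and the calcium-gated channel gene Kcnn4 changed by -1.05 (SE 0.17, adjusted p = 0.000364). The calcium entry channel gene Orai1 fell (-0.70, SE 0.08, adjusted p = 1.24e-05), and Mcoln1, a calcium channel of the lysosome, rose (1.14, SE 0.09, adjusted p = 4.26e-07). Gja1, the gap junction gene connexin 43, read 11.71, 11.74 and 11.64 in monolayer and 10.49, 10.61 and 11.04 in colonies (-0.98, SE 0.12, adjusted p = 4.44e-05). The sodium-calcium-potassium exchanger gene Slc24a3 (1.94, SE 0.19, adjusted p = 4.25e-06) and the water channel gene Aqp1 (1.13, SE 0.13, adjusted p = 1.77e-05) rose.

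Subunits of the vacuolar proton pump, which acidifies lysosomes and endosomes, rose together. Of 21 measured genes 14 rose (66.7%) and 0 fell, with a median of 0.40 and none at 2-fold. Their median log2 level in monolayer was high, at 10.18, and 44.7% of all genes above the median level passed in either direction. The regulatory subunit gene Atp6v1h read 8.79, 8.67 and 8.72 in monolayer and 9.69, 9.64 and 9.66 in colonies (0.94, SE 0.08, adjusted p = 8.46e-07), and the membrane subunit gene Atp6v0b read 10.17, 10.17 and 10.13 and 11.08, 11.26 and 10.82 (0.90, SE 0.10, adjusted p = 1.71e-05). Atp6v0d1 changed by 0.61 (SE 0.08, adjusted p = 8.23e-05) and the catalytic subunit gene Atp6v1a by 0.43 (SE 0.08, adjusted p = 0.00115), or 0.70 with its probe sets averaged. The E-box CACGTG, which reads the same on both strands and is bound by helix-loop-helix factors such as Tfeb, Usf and Myc, was present from 250 bases before to 50 after the RefSeq start sites of 10.8% of the 9882 genes. It was present for 15.4% of the 1389 genes that rose, 10.6% of the 1568 that fell and 9.94% of those not called. Among genes that changed at least 2-fold it was present for 11.9% of the 151 that rose, near the share of all genes, and for 4.97% of the 181 that fell. Of the 16 pump genes with a promoter in the table it was present for 4 (25.0%), all 4 among the 9 of them that rose. Of the factors named, Tfeb (0.35, SE 0.08, adjusted p = 0.00435) and Usf2 (0.60, SE 0.12, adjusted p = 0.00158) rose, and Myc fell as given above. Tfeb was picked after its value was seen, and other members of these families are not given here. Whether any of these factors acts on the pump genes was not tested. This motif, too, was chosen after the values were seen. The promoters of 3 of these 4 genes are shown with the E-box in capitals: Atp6v0b (chr4:117887280-117887579, minus strand, matches at -36 and -18), Atp6v0d1 (chr8:105566015-105566314, minus strand, match at -3) and Atp6v1a (chr16:44139210-44139509, minus strand, match at -131), on build GRCm38.p6.
Atp6v0b: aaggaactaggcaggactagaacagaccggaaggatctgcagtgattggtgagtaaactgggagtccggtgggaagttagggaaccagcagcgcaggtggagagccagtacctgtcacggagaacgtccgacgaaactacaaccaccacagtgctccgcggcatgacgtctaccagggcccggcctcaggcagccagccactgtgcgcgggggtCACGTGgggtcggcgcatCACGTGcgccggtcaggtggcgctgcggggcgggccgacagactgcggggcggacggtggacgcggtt
Atp6v0d1: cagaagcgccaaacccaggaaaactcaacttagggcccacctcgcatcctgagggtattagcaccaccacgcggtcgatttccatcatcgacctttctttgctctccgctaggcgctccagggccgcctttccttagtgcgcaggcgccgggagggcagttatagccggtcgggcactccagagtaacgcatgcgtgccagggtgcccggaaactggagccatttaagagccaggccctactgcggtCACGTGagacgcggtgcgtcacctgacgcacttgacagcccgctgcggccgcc
Atp6v1a: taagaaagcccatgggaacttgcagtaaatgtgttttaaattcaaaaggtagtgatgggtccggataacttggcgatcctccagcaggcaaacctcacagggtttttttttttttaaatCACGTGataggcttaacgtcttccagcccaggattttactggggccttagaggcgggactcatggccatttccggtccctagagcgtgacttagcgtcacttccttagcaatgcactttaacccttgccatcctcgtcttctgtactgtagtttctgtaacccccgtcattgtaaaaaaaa

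**Figure D4:**
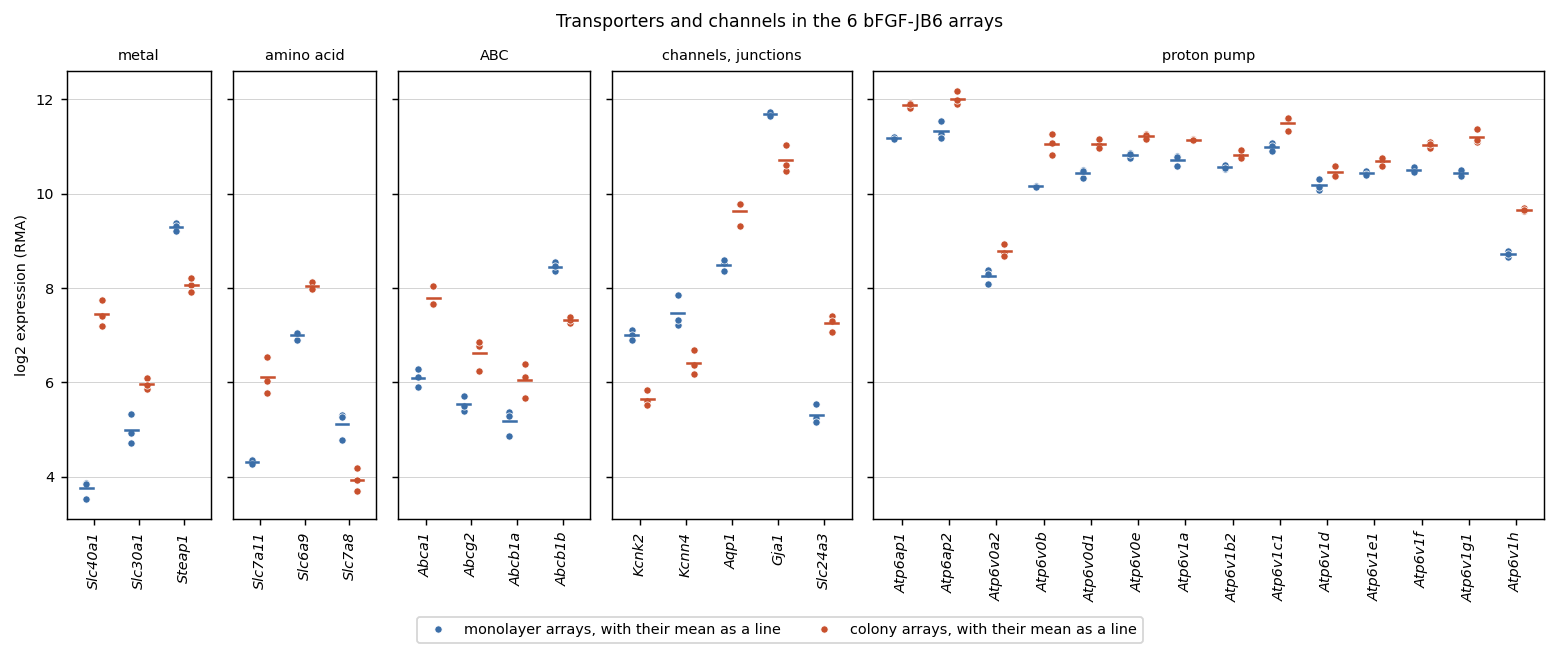
Log2 expression of transporter and channel genes on each bFGF-JB6 array (points; blue, 3 monolayer arrays; red, 3 colony arrays) with the group mean as a line. Slc40a1 and Slc24a3 show the widest gaps upward, Abcb1b, Kcnk2 and Steap1 fall, and the 14 proton pump genes that passed all have a higher mean in colonies.

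A list of 36 inhibitors, which takes in feedback inhibitors of growth factor and cytokine signalling, NF-kB inhibitors and cyclin-dependent kinase inhibitors, held 14 decreases (38.9%) and 6 increases. The cell cycle inhibitor gene Cdkn1b was among those that rose (0.63), and it lost its call with its probe sets averaged (adjusted p = 0.336). Errfi1, an inhibitor of the EGF receptor, dropped from 10.91, 10.84 and 10.81 to 8.20, 8.12 and 8.41 (-2.61, SE 0.09, adjusted p = 3.05e-10). Socs3, which blocks signalling from LIF-family receptors, changed by -0.97 (SE 0.13, adjusted p = 6.77e-05), and Spry2, which restrains FGF signalling, by -0.91 (SE 0.11, adjusted p = 2.26e-05), or -0.48 with its probe sets averaged. Phosphatases gave 9 increases and 13 decreases (20.6%) among 63. Ptpn22, a tyrosine phosphatase best known from lymphocytes, fell from 6.56, 6.51 and 6.78 to 5.03, 4.75 and 4.84 (-1.74, SE 0.10, adjusted p = 3.22e-08), and the ERK phosphatase gene Dusp6 changed by -1.34 (SE 0.08, adjusted p = 7e-08). The receptor-type phosphatase genes Ptprg (0.94) and Ptprm (0.90) rose.

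The natriuretic clearance receptor gene Npr3, beside the fall of Nppb, changed by -1.72 (SE 0.13, adjusted p = 3.98e-07). Prostacyclin synthase, Ptgis, changed by -1.24 (SE 0.08, adjusted p = 1.5e-07).

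Of 48 nuclear pore and transport genes 24 fell (50%) and 1 rose, with a median of -0.29. The list was bright, at a median log2 level of 8.29 in monolayer, with 0 genes at the bottom of the scale. In either direction 52.1% of it passed, against 44.7% of all genes above the median level. Kpna2, an importin that carries proteins into the nucleus, read 10.56, 10.75 and 10.71 in monolayer and 9.57, 9.47 and 9.69 in colonies (-1.09, SE 0.09, adjusted p = 1.02e-06). The pore anchor gene Ndc1 (-0.98, SE 0.09, adjusted p = 2.08e-06), the scaffold gene Nup85 (-0.86, SE 0.08, adjusted p = 4.2e-06) and the importin gene Kpnb1 (-0.83, SE 0.12, adjusted p = 0.000114, or -0.52 with its probe sets averaged) also fell. The gene that rose, Ranbp9 (0.35), lost its call in 6 of 14 alternative settings, up to an adjusted p of 0.179. Of 85 splicing factors 23 fell (27.1%) and 8 rose, with a median of -0.15. These were bright too, at a median level of 8.64 in monolayer, and 36.5% passed, below the share of all genes above the median level. The snRNP gene Snrpa1 changed by -1.04 (SE 0.11, adjusted p = 8.87e-06) and Lsm3 by -0.93 (SE 0.13, adjusted p = 0.000127). Several splicing genes have probe sets that disagree in direction, among them Rbm39 (0.85, and 0.02 with its probe sets averaged), so these counts are less certain than others.

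Chromatin modifiers gave 15 increases and 25 decreases (24.8%) among 101. The histone methyltransferase gene Suv39h2 fell (-1.32, SE 0.19, adjusted p = 0.000142, or -0.79 with its probe sets averaged), as did the demethylase gene Kdm5a (-1.30, SE 0.15, adjusted p = 1.49e-05) and the SWI/SNF scaffold gene Smarcc1 (-1.13, SE 0.10, adjusted p = 2.65e-06). The Polycomb catalytic subunits moved apart, Ezh2 by -0.54 (SE 0.10, adjusted p = 0.000977) and Ezh1 by 0.65 (SE 0.11, adjusted p = 0.000395). Of 40 kinesin and dynein genes 12 fell (30%) and 3 rose, mitotic motors such as Kif20a (-1.63), Kif2c (-1.47) and Kif18a (-1.46) first. The centromere histone gene Cenpa changed by -1.64 (SE 0.09, adjusted p = 1.57e-08).

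In metabolism the malic enzyme genes moved apart. Mitochondrial Me2 fell from 7.66, 7.51 and 7.62 to 6.47, 6.30 and 6.17 (-1.28, SE 0.10, adjusted p = 3.2e-07), and cytosolic Me1, a source of NADPH, rose (1.01, SE 0.17, adjusted p = 0.000408). Pcx, which feeds oxaloacetate into the tricarboxylic acid cycle, changed by 0.99 (SE 0.11, adjusted p = 1.87e-05), and Idh2 by 0.70 (SE 0.09, adjusted p = 4.58e-05). The steroid and xenobiotic oxidation list held 16 increases (10.2%) and 7 decreases (4.46%) among 157, both below the shares of all genes. In it Cyp2f2, a cytochrome P450 gene, rose from 3.14, 3.09 and 3.08 to 5.04, 4.85 and 5.17 (1.92, SE 0.10, adjusted p = 1.76e-08), and Hsd11b1, which regenerates active glucocorticoid, changed by 0.96 (SE 0.12, adjusted p = 3.66e-05). Among glycosyltransferases and sulphotransferases, 15 up (14.6%) and 8 down (7.77%) of 103, B3gnt9 (1.46, SE 0.12, adjusted p = 5.59e-07) and Chst2 (1.18, SE 0.15, adjusted p = 4.04e-05) rose most.

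The ranks 11 to 25 of all genes that rose held matrix and secreted genes besides those above. They were Pcdhb9 (3.22, a protocadherin with close relatives), Mmp11, Agt, Aspa (3.10), Lox (3.06, which cross-links collagen), Scara5, F3, Apod (2.79, a lipid carrier), Sparcl1 (2.67), Postn (2.63, periostin), Scg2 (2.63), Ccdc80 (2.62), Gstm1 (2.59, with close relatives), Ccl8 and Ctsk (2.43, cathepsin K). Apod went from 5.84, 5.72 and 5.48 in monolayer to 8.65, 8.17 and 8.60 in colonies, and Ctsk from 4.58, 4.60 and 4.45 to 6.93, 6.90 and 7.09. The same ranks downward were Errfi1, Hbegf, Oas1a, Fst, Cavin2 (-2.51, a coat protein of caveolae), Lce1f (-2.47), Ackr3, Btg2 (-2.33, an antiproliferative gene), Sema7a, Gap43 (-2.25), Cenpe (-2.24), Ngef, Helz2 (-2.07), Ifi202b (-1.98) and Slfn8 (-1.98), the last 2 with close relatives. Cavin2 went from 9.64, 9.55 and 9.61 to 7.01, 6.80 and 7.46, and Btg2 from 9.60, 9.70 and 9.93 to 7.73, 7.36 and 7.13. The rule for these ranks took only genes whose groups did not overlap. With probe sets averaged, Lox gave 2.03 and Lce1f -1.33.

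RT101 colonies against RT101 monolayer served as the irreversible counterpart, and the difference between the colony changes was tested for each gene in the same limma fit. It passed for 3430 of 12393 genes (27.7%). By class it passed for 123 of 534 transcription factors (23%), 76 of 480 receptors (15.8%), 180 of 674 secreted factors (26.7%) and 108 of 540 transporters (20%). Of the genes called in bFGF-JB6 colonies, 1352 were also called with the same sign in RT101 colonies and 550 with the opposite sign. The clock output genes Dbp, at 1.94 in bFGF-JB6 and 1.86 in RT101, and Hlf, at 1.32 and 1.45, did not pass for a difference (adjusted p = 0.821 and 0.655). Osmr did not either, at 1.11 and 1.05 (adjusted p = 0.854), whereas Lifr did, at 1.76 and -0.36 (difference 2.11, SE 0.20, adjusted p = 3.55e-06). Fgfr1 changed by 1.36 and 0.71, and the difference did not pass (adjusted p = 0.0708). Fgfr2, at 0.60 and -0.09, did differ (adjusted p = 0.00318).

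The differences between lines with the largest size included opposite directions. Fos fell in bFGF-JB6 colonies and changed by 0.95 in RT101 colonies (difference -2.29, SE 0.12, adjusted p = 1.38e-08). Ahr, the dioxin receptor, stood at -0.90 and 2.03 (difference -2.93, adjusted p = 6.82e-07), and its bFGF-JB6 change was -0.49 with its probe sets averaged, and Slc7a11 at 1.80 and -1.63 (difference 3.42, adjusted p = 1.6e-07). Slc40a1 and Scara5 rose in bFGF-JB6 colonies with RT101 changes of 0.18 and 0.35 (adjusted p of the difference 5.24e-08 and 2.06e-08). Il33 and Tslp fell in bFGF-JB6 colonies against RT101 changes of 0.40 and 0.31 (adjusted p of the difference 1.45e-10 and 6.21e-10). RT101 received no bFGF, so line and growth factor cannot be told apart.

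**Figure D5:**
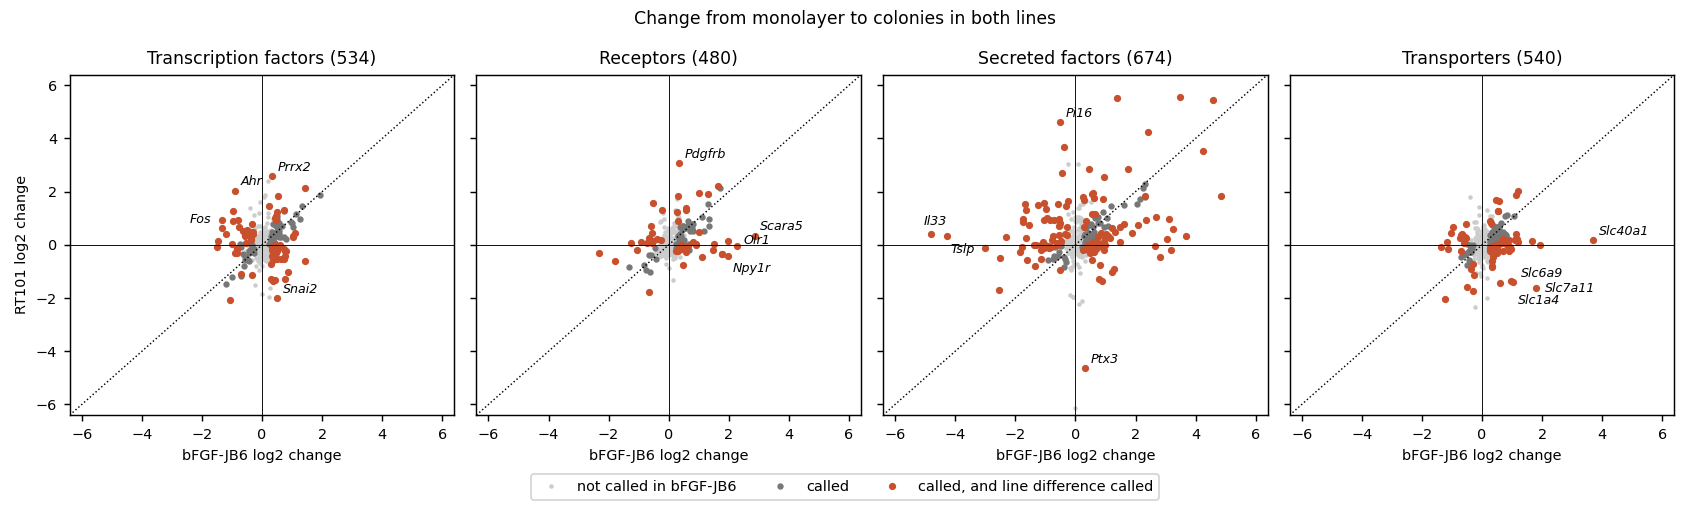
Log2 change from monolayer to colonies in bFGF-JB6 (horizontal) and RT101 (vertical) for each gene of the 4 classes, with the number of genes in parentheses; the dotted line marks equal changes. Light grey points were not called in bFGF-JB6, dark grey points were, and red points also for the difference between lines; the 16 named genes are the 4 of each class with the largest such difference among genes called in bFGF-JB6, and they lie far from the dotted line.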

How the data were processed

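RNA from 11 samples was measured on Affymetrix arrays. The deposited values are log2 expression normalized by the authors with RMA, per the submitters' processing notes, with no version given and no scanner files used here, so depth does not apply. Of 22690 probe sets, 20380 named 1 gene (20351 found in the RefSeq table), 691 named several genes and 1555 none. The brightest single-gene probe set stood for each of 12393 genes. All arrays entered 1 limma 3.58.1 fit (R 4.3.3) with 4 groups, and genes were called at an adjusted p of 0.05 (Benjamini-Hochberg over all genes). On simulated data for bFGF-JB6 colonies minus monolayer with 200 of 12393 genes changed, the fit recovered 76% of changes of 0.5 and 100% of changes of 1, with 9 false among 185 calls. The simulated noise was normal and independent between arrays, and far fewer genes changed than the 3642 called in the data. These rates thus check the fit and need not hold for the real arrays.

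The members, 68 gene lists (symbol patterns taking whole families) and 11 marker lists were chosen with earlier results of these data known. Genes named are, per list, up to 3 with the largest called increase and decrease whose groups do not overlap, ranks 11 to 25 of all genes in each direction, Fgf2 and its receptors, and the 4 largest differences between lines in each class. Genes outside this rule were chosen after their values were seen: Abcb1a, Adgre1, Agtr2, Arntl, Atp6v0d1, Atp6v1a, Cd59a, Cd68, Cfp, Clcf1, Clec4d, Clock, Cry2, Ctf1, Cxcr4, Dcn, Egfr, Ezh2, Fosl1, Grem1, Hmox1, Ifna11, Il11, Il34, Il6, Irx2, Irx3, Jun, Kpnb1, Krt14, Lif, Nr1d2, Nr3c1, Per1, Per2, Prss23, Ptprc, Rora, S100a8, Slc3a2, Slc48a1, Tef, Tfeb, Trp63, Vegfa, Vegfb and Vim. Alternatives were other scalings (median centring, cyclic loess), variance model, probe set rule, level filter, 2-fold minimum, fit on 6 arrays, replicate block and arrays left out. Promoters and motifs were matched with Python 3.11.15, pandas 2.3.3 and RefSeq's table on GRCm38.p6, and figures drawn with matplotlib 3.10.9. The result of 1 gene group is not reported here.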

Additional observations from a re-analysis of the deposited data

Results flagged for a closer look

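For 16 genes the colony change in bFGF-JB6 differed from that in RT101 by the test of the difference itself in limma, which compares 3 bFGF-JB6 colony and 3 monolayer arrays with 3 RT101 colony and 2 monolayer arrays. They are the 4 genes with the largest difference in each of the 4 classes among those called in bFGF-JB6, and the difference is the bFGF-JB6 change minus the RT101 change on the log2 scale. Among transcription factors it was -2.93 for Ahr, 2.51 for Snai2, a repressor of epithelial genes, -2.29 for Fos and -2.23 for Prrx2, a mesenchymal homeobox factor. The adjusted p-values were 6.82e-07, 2.86e-07, 1.38e-08 and 2.36e-07. Snai2 changed by 0.50 in bFGF-JB6 and -2.01 in RT101, and Prrx2 by 0.34 and 2.57.

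Among receptors the difference was -2.72 for the PDGF receptor gene Pdgfrb, 2.52 for Scara5, 2.39 for Npy1r and 2.31 for Olr1, with adjusted p-values of 4.42e-08, 2.06e-08, 1.28e-07 and 2.09e-06. Pdgfrb changed by 0.35 in bFGF-JB6 and 3.07 in RT101. Among secreted factors it was -5.20 for Il33, -5.12 for Pi16, 4.96 for the pentraxin gene Ptx3 and -4.60 for Tslp, with adjusted p-values of 1.45e-10, 1.31e-10, 3.1e-10 and 6.21e-10. Pi16 and Ptx3 changed by -0.52 and 0.34 in bFGF-JB6 and by 4.60 and -4.63 in RT101. The bFGF-JB6 calls of Ptx3, Prrx2 and Pdgfrb were lost in 8 of 13, 5 of 14 and 3 of 14 alternative settings, up to an adjusted p of 0.275, 0.0986 and 0.108, and Ptx3 changed by 0.19 without both arrays of raised 3′ signal. With probe sets averaged the bFGF-JB6 changes of Ahr, Scara5 and Npy1r were -0.49, 1.42 and 0.97.

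Among transporters it was 3.52 for Slc40a1, 3.42 for Slc7a11, 2.45 for Slc6a9 and 2.31 for Slc1a4, with adjusted p-values of 5.24e-08, 1.6e-07, 9.86e-09 and 3.05e-05. The 3 amino acid carriers rose in bFGF-JB6 and changed by -1.63, -1.41 and -1.35 in RT101. Line, treatment with bFGF and tumour state cannot be told apart in these differences.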

How the results depend on the processing

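Requiring a 2-fold change beside the adjusted p left 203 genes higher and 229 lower, 10 and 8 transcription factors, 19 and 5 receptors, 38 and 28 secreted factors and 13 and 5 transporters, and 968 genes for the difference between lines. Testing only genes above the median level left 46 receptors and 70 secreted factors higher, since fewer were tested. Leaving out each bFGF-JB6 array in turn gave 1409 to 1841 genes higher and 1586 to 1992 lower, 70 to 83 and 36 to 50 transcription factors, 62 to 85 and 22 to 28 receptors, 100 to 126 and 62 to 69 secreted factors, 69 to 91 and 26 to 38 transporters, and 2979 to 3664 genes for the difference. Arrays with the same replicate number did not deviate together (correlations of deviations of 0.0223, 0.0763 and -0.245), which does not exclude that they are paired. With the replicate number as a block 1726 genes were higher and 1824 lower. All other counts stayed within 1.5 times. Of 406 called genes tested one by one, 335 kept direction and call in every setting run and 71 lost the call or turned in at least one. With probe sets averaged, Elf2 gave -0.02, Fgfr4 0.04 and Egfr -0.08. Signs of genes with no call also turned when 1 array was left out, with ranges of -0.10 to 0.34 for Fgf2, -0.07 to 0.07 for Fgfr4, -0.06 to 0.06 for Cxcr4, -0.04 to 0.23 for Egfr and -0.07 to 0.07 for Ptprc, and, without both arrays of raised 3′ signal, for Fgfr3 (-0.08), Cxcr4 (-0.03), Egfr (-0.01) and Ptprc (-0.16). Cyclic loess gave -0.03 for Cxcr4 and -0.02 for Ptprc. The cause was not tested. Low signal limits the precision of 3025 genes at the bottom of the scale in both groups, and the small number of arrays limits that of all.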

Other observations

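The shares of matrix genes that rose lay above the 14.1% of all genes. Of 36 collagen chains 11 rose (30.6%) and 2 fell. Col6a1, a chain of the beaded filament collagen VI, went from 7.97, 7.70 and 7.79 in monolayer to 10.21, 10.12 and 10.12 in colonies (2.33, SE 0.09, adjusted p = 4.2e-10), and Col6a2 changed by 2.31 (SE 0.08, adjusted p = 2.67e-10). Col8a1, a short-chain collagen, fell from 6.49, 6.22 and 6.35 to 4.44, 4.17 and 4.89 (-1.85, SE 0.15, adjusted p = 9.76e-07). Of 78 other matrix genes 22 rose (28.2%) and 7 fell. The cell adhesion protein gene Tnc, tenascin-C, changed by -1.25 (SE 0.09, adjusted p = 2.44e-07), and Ecm1 by -1.56 (SE 0.09, adjusted p = 1.78e-08).

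Acute-phase, antimicrobial and S100 genes gave 15 increases (24.2%) and 8 decreases among 62. Lbp, which hands bacterial lipopolysaccharide to its receptor, went from 6.76, 6.33 and 6.34 to 8.81, 8.95 and 8.63 (2.32, SE 0.14, adjusted p = 4.05e-08). IGF-binding proteins moved apart. Igfbp7 (1.19, SE 0.11, adjusted p = 3.3e-06) and Igfbp5 (0.95, SE 0.16, adjusted p = 0.000601) rose and Igfbp6 (-0.95, SE 0.09, adjusted p = 4.01e-06) fell. With probe sets averaged Igfbp7 gave 0.74 and Igfbp5 2.09. The summed linear signal of 9 neutrophil markers was 2428 to 2693 in monolayers and 3006 to 3437 in colonies. Of the 9, 5 lay at the bottom of the scale and 1 at or above the median gene in both groups. Such a sum follows its brightest genes and does not show a shift of the whole list. Only 1 of them was called, S100a8 (chosen after its value was seen), at 0.38 (SE 0.11, adjusted p = 0.0193). S100a8 lost its call in 4 of 14 alternative settings, up to an adjusted p of 0.0909. The summed signal of 7 adipocyte markers was 1003 to 1086 in monolayers and 691 to 695 in colonies. Of these 7, 4 lay at the bottom of the scale in both groups and 1 was called lower. The part of these marker lists in the results was not tested.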
